A study of Mus musculus with 2 samples.

Results

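Antiviral interferon-stimulated genes were followed gene by gene through every cell class of lungs from tumor-bearing mice given saline or nanoparticles (NPs). The members were chosen by symbol from a list of 38, and 36 of them were analysed among the 32285 genes of the count matrices. Mx1 and Mx2, the 2 others, were not analysed here. All mice were female BALB/cJ animals aged 12 weeks. They all carried a tumor of 4T1, a mouse mammary carcinoma line that spreads to the lung, 14 days after inoculation of 100000 cells. The control mice received intravenous saline and the treated mice intravenous particles of the polymer PLG, every 3 days from day 1. Lungs of 4 mice per condition, as the labels count them, were pooled into 1 single-cell RNA sequencing library, so the spread between mice cannot be measured, and no tumor-free lung was compared.

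Type I interferons bind the receptor formed by IFNAR1 and IFNAR2. The kinases JAK1 and TYK2 then pass the signal on to a complex with IRF9, which binds interferon-stimulated response elements (ISRE) near the genes described here. Their products sense viral RNA and DNA (RIG-I encoded by Ddx58, MDA5 encoded by Ifih1, and Zbp1), bind foreign transcripts (IFIT proteins), make the activator of RNase L (OAS enzymes), tag proteins with ISG15, or block viral replication and release (viperin encoded by Rsad2, and tetherin encoded by Bst2). Many of them also answer IFN-γ, which acts at gamma-activated sites (GAS), so the genes alone do not tell which interferon acted.

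After filtering, 8662 saline cells with a median of 6475 UMIs (transcript tags) and 8333 NP cells with a median of 6008 UMIs were used. Neutrophils made up 64.5% of the saline cells and 36.7% of the NP cells, and 11 cell classes held at least 50 cells in each library. Only these classes were described gene by gene. Clusters left unnamed held 4.25% of saline and 8.99% of NP cells. A marker list for conventional dendritic cells was used, but no cluster took that name, so these cells are not described as a class. Called doublets, 1.18% of saline and 3.73% of NP cells, were kept, and 21 cell barcodes occurred in both libraries. In each of the 11 classes 7 or more of its own marker genes reached 10 CPM (UMIs scaled to 1000000 UMIs of the class) in both libraries. Neutrophil markers were also detected in every other class, 12 of 12 in each, with a summed level between 3512 and 30972 CPM in saline and between 3690 and 19996 in NP.

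Levels are given as CPM, and each change is the log2 ratio of NP to saline CPM, with a count under 3 set to 3. Each ratio has an exact conditional binomial 95% interval that covers counting error only. A member counts as measured in a class with at least 20 UMIs over both libraries. There is no test across mice. Counts past 2-fold therefore describe these 2 libraries, and in the main setting they stand beside the percentage of all measured genes past the same fold.

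The promoter sequences of 4 members are shown for the range of responses they stand for. They are the member higher in most classes (Rsad2), the next one (Isg15) and the member with the highest neutrophil ratio in the pooled counts (Ifit3). The last, Trim25, was 2-fold higher in no class. Each run is the 200 bases before the RefSeq start on GRCm38.p6, in the direction of transcription, and capitals mark matches on either strand to the ISRE core, which reads GAAA, any 2 bases, GAAA. The regions are chr12:26456453-26456652 on the minus strand for Rsad2, chr4:156200819-156201018 on the minus strand for Isg15, chr19:34583329-34583528 on the plus strand for Ifit3 and chr11:88999203-88999402 on the plus strand for Trim25.
Rsad2: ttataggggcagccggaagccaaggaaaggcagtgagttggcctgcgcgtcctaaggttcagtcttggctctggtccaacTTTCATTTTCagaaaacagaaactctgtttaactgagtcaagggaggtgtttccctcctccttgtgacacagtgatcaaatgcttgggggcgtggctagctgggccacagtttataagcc
Isg15: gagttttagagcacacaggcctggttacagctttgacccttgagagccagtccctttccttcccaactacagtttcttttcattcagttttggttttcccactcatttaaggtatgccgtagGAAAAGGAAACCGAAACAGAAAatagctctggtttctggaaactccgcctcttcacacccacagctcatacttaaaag
Ifit3: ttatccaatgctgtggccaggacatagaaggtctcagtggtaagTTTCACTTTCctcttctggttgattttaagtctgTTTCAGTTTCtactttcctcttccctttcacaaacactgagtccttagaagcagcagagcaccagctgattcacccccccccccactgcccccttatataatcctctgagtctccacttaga
Trim25: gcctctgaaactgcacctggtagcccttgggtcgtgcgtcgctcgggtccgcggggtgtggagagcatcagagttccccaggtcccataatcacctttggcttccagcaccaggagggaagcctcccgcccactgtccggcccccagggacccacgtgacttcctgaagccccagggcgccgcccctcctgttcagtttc

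Rsad2 held 1 match, Ifit3 held 2, and Isg15 held 3 that overlap in one run. No match was found in the Trim25 window. Windows of 250 bases before to 50 after a start were found for 28 of the 36 members, and 13 of the 28 (46.4%) held an ISRE core, against 3.99% of 27025 genes. The GAS motif TTCNNNGAA was in 6 of 28 (21.4%), against 9.55% of all genes. An ISRE core was in 6 of 9 members that were higher in 3 or more classes, in 5 of 11 higher in 1 or 2, and in 2 of 8 higher in none. The GAS motif was in 1 of 9, 2 of 11 and 3 of 8 of the same groups. These groups are small, and the near-identical copies Ifit3 and Ifit3b count separately in the first. A match is a description of the letters, and its use was not measured.

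In neutrophils, antiviral genes were higher in NP than in saline across nearly the whole list. All 36 members were measured, and 23 were at least 2-fold higher and 0 at least 2-fold lower, where 4.26% of 11079 genes were higher and 3.11% lower by that fold. The median log2 ratio over the members was 1.43, against −0.13 over all genes. Summed over the members the level went from 1012 to 2603 CPM. The interval lay above 0 for 33 members, where it did for 12.8% of all genes, and below 0 for 1, Trim25.

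The IFIT genes, whose products bind foreign RNA, had 4 of the 5 highest ratios in the pooled counts. Ifit3 counted 49 UMIs in saline and 238 in NP, 1.02 and 9.95 CPM, with a log2 ratio of 3.29 (2.84 to 3.76). These UMIs came from 15 saline and 74 NP neutrophils, so few cells carry this value, and without the cell with the most Ifit3 UMIs in each library it was 4.35. Ifit3b, a near-identical neighbor at chr19:34607970-34613401, had a log2 ratio of 3.07 (2.72 to 3.43). Reads of Ifit3 and Ifit3b can be split between the copies, and their separate values are uncertain. Ifit1 went from 8.81 to 60.5 CPM, a log2 ratio of 2.78, and Ifit2 had 2.72. With the neutrophil clusters of NP weighted as in saline, Ifit3b had 2.33, Ifit3 2.30, Ifit1 2.26 and Ifit2 1.59. Ifit2 then stood below Rsad2 (2.18), Xaf1 (2.02), Zbp1 (1.96), Oasl2 (1.85), Usp18 (1.76), Herc6 (1.72) and Isg15 (1.62). All 4 genes lie together on chromosome 19.

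Rsad2 and Cmpk2 are neighbors on chromosome 12. Viperin, the Rsad2 product, makes a nucleotide that stops viral RNA synthesis, and CMPK2 is a mitochondrial nucleotide kinase. Rsad2 counted 370 UMIs in 162 saline cells and 1561 in 478 NP cells, 7.71 and 65.3 CPM, with a log2 ratio of 3.08 (2.92 to 3.25). Cmpk2 had a log2 ratio of 2.05 (1.82 to 2.29).

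ISG15 is a ubiquitin-like protein that is joined to other proteins through UBA7 and HERC6 and taken off by USP18. Isg15 counted 5941 UMIs in saline and 12026 in NP, 124 and 503 CPM, with a log2 ratio of 2.02 (1.98 to 2.07). Herc6 and Usp18 were alike in size, with log2 ratios of 2.38 and 2.03. Uba7 had 0.80, and its count is uncertain because another gene model overlaps it on the same strand. Trim25, a ubiquitin ligase that acts on RIG-I, had 2689 and 1220 UMIs, 56.0 and 51.0 CPM, a log2 ratio of −0.13 (−0.23 to −0.04), equal to the median of all genes in neutrophils.

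The sensors were split. Zbp1 had a log2 ratio of 2.30 (2.19 to 2.41), Ifih1 1.43 and Ddx60 1.16. Ddx58 had 0.69, and Dhx58, which encodes the RIG-I relative LGP2, had 0.06 (−0.15 to 0.27). Of the OAS family genes, Oasl2 had 2.17 and Oas3 1.10, while Oas2, Oasl1 and Oas1a lay between 0.67 and 0.96. Eif2ak2, which encodes the RNA-activated kinase PKR, had 1.14 (0.85 to 1.43). Among the PARP genes, Parp14 had 1.47, Parp12 1.46 and Parp9 0.74.

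Of the 11 other effectors, 6 were at least 2-fold higher in neutrophils. Xaf1 had a log2 ratio of 2.20, Ifi27l2a 1.66, Epsti1 1.65, Bst2 1.48 and Rtp4 1.44. Ifi44 had 1.38 from 10 saline and 13 NP UMIs and an interval of 0.08 to 2.73, so its size is poorly known in this class. The other 5 lay between 0.54 for Trim30a, a TRIM-family gene, and 0.93 for Isg20, an RNA exonuclease.

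**Figure D1:**
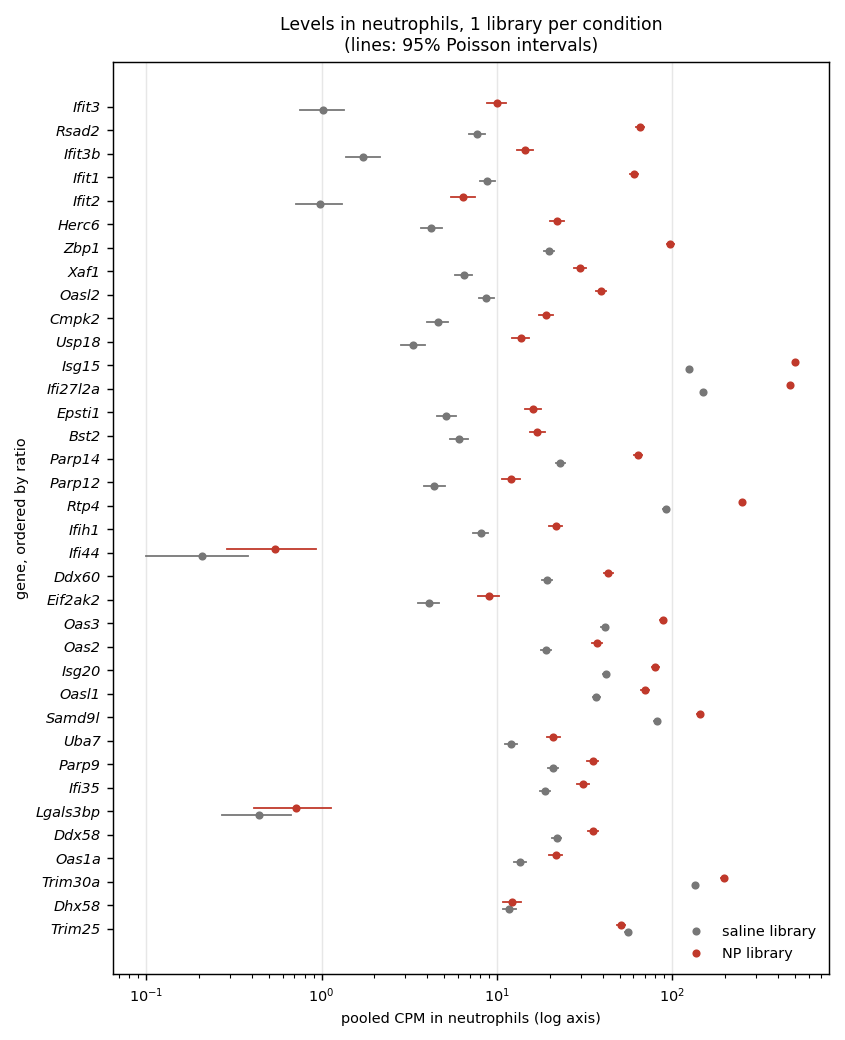
Level of each of the 36 members in neutrophils, in pooled CPM on a log axis, with the saline library in grey and the NP library in red. Lines are 95% Poisson intervals, and genes run from the highest to the lowest ratio. The points lie far apart for Ifit3 and Rsad2 at the top and nearly meet for Dhx58 and Trim25 at the bottom.

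The neutrophils fell into 6 clusters, and members were higher in NP within all of them. The Ccrl2- and Cxcl10-led cluster held 9.3% of saline and 35.7% of NP neutrophils. Its members had a median log2 ratio of 1.51, with 25 of 34 measured at least 2-fold higher. The cluster led by Camp, Ngp and Ltf, granule genes of immature neutrophils, held 9.18% and 11.1% and had the lowest median, 0.34, with 4 of 33 at least 2-fold higher. In the 4 other clusters the median lay between 0.77 and 1.32. Of all genes, 1.28% to 2.94% were at least 2-fold higher in a cluster. Isg15 had a log2 ratio of 1.46 to 1.91 in the 5 clusters other than the Camp-led one, and 0.81 there. With the NP clusters weighted as in saline, the median over the members was 1.05 in place of 1.43. Interferon-induced genes were left out of the genes used for clustering, but Cxcl10 and Isg15 were still among the leading genes of the Ccrl2-led cluster.

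**Figure D2:**
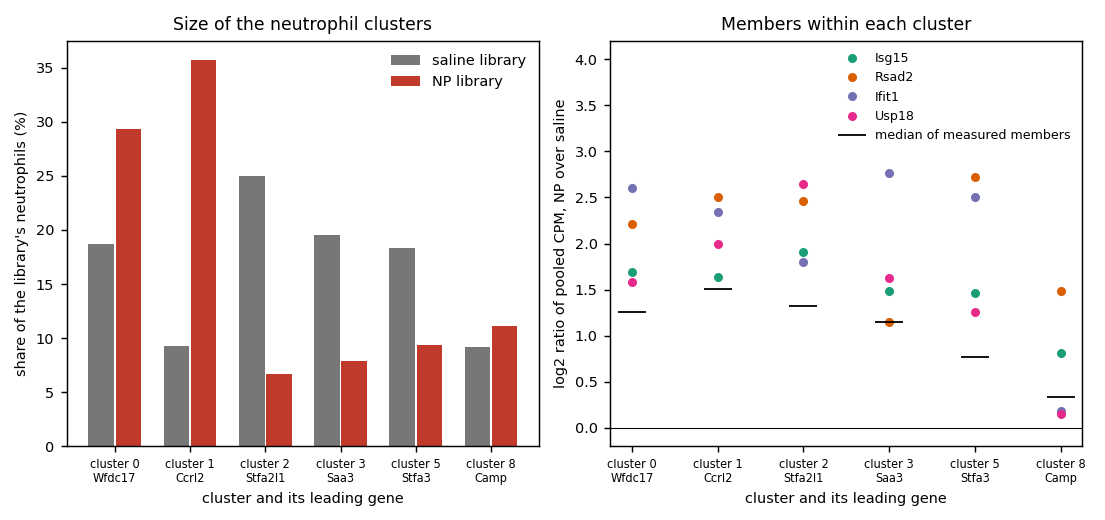
Left, share of each library's neutrophils in each cluster (%), named by its leading gene. Right, log2 ratio of pooled CPM within each cluster for Isg15, Rsad2, Ifit1 and Usp18 (points, drawn at 20 or more UMIs) and the median over the measured members (black line), which runs from 1.51 in the Ccrl2-led cluster to 0.34 in the Camp-led cluster.

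The change was also seen per cell. With each cell thinned to 1000 UMIs, at least 1 member was detected in 55.8% of saline and 78.3% of NP neutrophils, and the mean number of members per cell was 1.01 and 2.47. Cells with 5 or more members made up 2.38% (exact binomial 95% interval, 2.00 to 2.82) of saline and 16.8% (15.5 to 18.2) of NP neutrophils. Without thinning the shares were 41.4% and 73.1%. Isg15 was detected in 12.6% of thinned saline and 35.7% of thinned NP neutrophils, and Rsad2 in 0.914% and 6.61%. NK cells had 0 Rsad2 UMIs in both libraries, at a median of 4415 and 5545 UMIs per cell against 6043 and 5237 in neutrophils. The tenth of cells with the most member UMIs held 46.4% of them in saline and 40.1% in NP neutrophils.

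Beside neutrophils, the share of thinned cells with 5 or more members was higher in NP in classical monocytes, 3.81% and 11.3%. It was also higher in C1q-led macrophages, 3.93% and 11.8%, and in endothelial cells, 2.02% and 6.23%. The intervals do not overlap in these classes, but they take cells as independent units and do not cover the spread between mice. No other gene set was counted in this way. In B cells the share was 1.71% and 1.08% and in T cells 2.77% and 2.38%, with intervals that overlap. No alveolar macrophage, NK cell or epithelial cell reached 5 members; 0 of 164 saline and 0 of 222 NP alveolar macrophages allow shares of up to 2.22% and 1.65%.

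**Figure D3:**
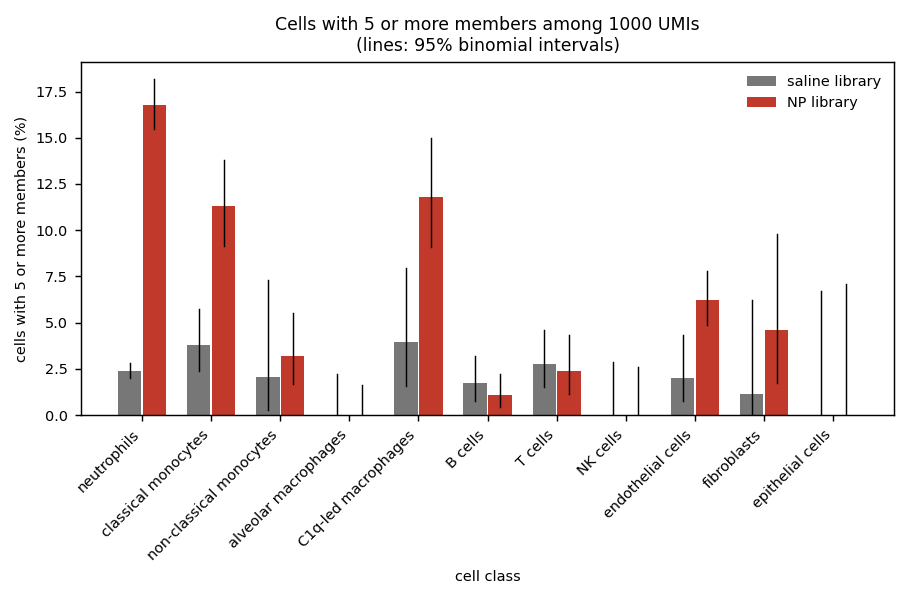
Share of cells (%) in which 5 or more of the 36 members were detected after each cell was thinned to 1000 UMIs, by cell class, with saline in grey and NP in red and lines for exact binomial 95% intervals. The NP bars stand well above the saline bars in neutrophils (16.8% against 2.38%), classical monocytes and C1q-led macrophages, and not in B or T cells.

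Classical monocytes, the Ly6c2-expressing blood monocytes, had the same direction at a smaller size. Of 36 measured members, 9 were at least 2-fold higher and 0 lower, against 1.87% of 10778 genes higher and 1.52% lower, and the interval lay above 0 for 32, against 10.7% of genes. The median log2 ratio was 0.67, against −0.04 over all genes. The saline level summed over the members was already 2389 CPM, above the 1012 CPM of neutrophils, and it was 3724 CPM in NP. Of the 2389 CPM, 1718 came from the group of other effectors. The saline sums of the OAS and ISG15 conjugation groups were lower than in neutrophils, 88.8 and 191 CPM against 119 and 199. Those of the remaining groups were higher. Ifit3 had the highest ratio, 1.48 (1.03 to 1.95), from 52 and 197 UMIs. Isg15 went from 63.9 to 148 CPM, a log2 ratio of 1.21 (1.08 to 1.34), and Rsad2 had 1.18 from 16 saline and 59 NP cells. Ifi44 was well measured here, with 528 and 1651 UMIs and a log2 ratio of 1.20 (1.06 to 1.35).

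The low end of the monocyte list was not the same as in neutrophils in every gene. Trim25 had −0.05 and Dhx58 0.23, as low as in neutrophils in rank. Herc6, at 2.38 in neutrophils, had 0.24 (−0.03 to 0.51) in monocytes. Xaf1 and Epsti1 had 0.36 and 0.28. Lgals3bp, a secreted glycoprotein, went from 14.4 to 36.5 CPM (136 and 467 UMIs), a log2 ratio of 1.34 (1.06 to 1.62). In neutrophils it counted 21 and 17 UMIs, a ratio of 0.70 with an interval of −0.31 to 1.69. Differences between classes were not tested.

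The class led by the complement genes C1qa, C1qb and C1qc is named by those genes. The marker list calls it interstitial macrophages, but at a finer resolution only 56 saline and 82 NP cells of its 178 and 482 stayed in a C1q-led cluster, and 122 and 400 went to a cluster led by Aif1, Ms4a6d and Ms4a4c. In the whole class 12 of 36 members were at least 2-fold higher, against 3.3% of 10132 genes, and 0 at least 2-fold lower, against 3.45%, with a median of 0.75. The Aif1-led cells had a median of 0.63, with 11 of 36 higher, against 4.01% of all genes. The C1q-led cells had a median of 0.06, with 1 of 26 higher, against 3.81% of all genes, and 1 lower, against 3.31%. The higher one was Epsti1, at 2.79, which was not past 2-fold in the whole class. Summed over the members, the log2 ratios were close, 0.52 (0.47 to 0.56) in the Aif1-led and 0.47 (0.37 to 0.57) in the C1q-led cells. The saline sums were 2938 and 1423 CPM. The Aif1-led part was a larger share of the class in NP, so the whole-class values also hold this shift in mix. Over the whole class Ifit3 had 7 and 140 UMIs, a log2 ratio of 2.79 (1.71 to 4.13), Rsad2 2.37 (1.62 to 3.23), and Isg15 1.36 (1.14 to 1.58). Trim25 was again lowest, at −0.10. The value for Isg15 turns with the clustering: in the 56 and 82 C1q-led cells alone its log2 ratio was −0.58, and Ifi44, at 1.02 in the whole class, had −0.66.

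Non-classical monocytes, which patrol the vessel wall, had 4 of 30 measured members at least 2-fold higher, against 3.75% of 8534 genes, and 0 lower, against 3.16%, with a median of 0.44. Only 96 saline cells carry these values. Isg15 had 10 UMIs in 10 saline cells and 177 UMIs in 72 NP cells, 15.2 and 52.5 CPM, a log2 ratio of 1.79 (0.88 to 2.88). Ifi44 had 1.37 (0.59 to 2.27). Rsad2 had 0 saline and 41 NP UMIs, 2.67-fold higher with the saline count set to 3. That is a point value and not a lower limit, and its interval lay above 0. Trim25 had −0.54 (−1.0 to −0.05) and Lgals3bp −0.51, the opposite side from classical monocytes, with an interval of −1.16 to 0.20.

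Alveolar macrophages, which reside in the airspace, differed little. Of 25 measured members 1 was at least 2-fold higher, against 1.36% of 9859 genes, and 0 were lower, against 1.57%. The median was 0.11. Isg15 counted 53 UMIs in saline and 69 in NP, 18.3 and 16.1 CPM, with a log2 ratio of −0.19 (−0.72 to 0.36). A single saline cell held 39 of its 53 UMIs, and the direction turned with the cells used. The log2 ratio was 1.35 without the cell with the most Isg15 UMIs in each library, 1.75 with mitochondrial UMIs under 5% and −2.15 with called doublets removed. The member past 2-fold was Rsad2, with 4 and 21 UMIs and an interval of 0.26 to 3.83. Trim25, lowest in neutrophils and classical monocytes, was among the 3 highest of the 18 members with at least 100 UMIs here. It had 0.42 (0.25 to 0.59), going from 145 to 194 CPM. Ifi27l2a had 0.66 and Parp14 0.48, and Herc6, Samd9l and Uba7 had −0.40, −0.26 and −0.23, with intervals that include 0.

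Endothelial cells, which line the vessels that intravenous particles pass, had 6 of 34 measured members at least 2-fold higher, against 2.49% of 10942 genes, and 0 lower, against 1.73%. The median was 0.29. Rsad2 had 0 UMIs in 300 saline cells and 55 UMIs in 17 of 1122 NP cells. With the saline count set to 3 this was 4.81-fold higher, a point value and not a lower limit, with an interval above 0. Ifit3b had 4 and 56 UMIs, a log2 ratio of 1.88. Ifi27l2a had 28 and 335 UMIs, a log2 ratio of 1.65 (1.09 to 2.26), and 1 NP cell held 82 of the 335. Isg15 went from 55.6 to 121 CPM, 1.12 (0.78 to 1.48), in 48 saline and 311 NP cells. Zbp1 had 1.34 and Ifit1 1.00. Ifi44 and Ddx60, at least 2-fold higher in both classical monocytes and neutrophils, had −0.18 and −0.19. Bst2, measured in 523 and 2455 UMIs, had 0.30 (0.16 to 0.44).

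In fibroblasts 6 of 24 measured members were at least 2-fold higher, against 4.11% of 7609 genes, and 0 were lower, against 3.81%. The median was 0.53. Isg15 had 20 and 127 UMIs, 38.2 and 158 CPM, a log2 ratio of 2.05 (1.36 to 2.81). Ifit3 had 6 UMIs in 5 saline cells and 53 UMIs in 15 NP cells, and 1 of those cells held 21. Ifi27l2a went the other way, from 728 to 439 CPM, a log2 ratio of −0.73 (−0.94 to −0.52). Neutrophil markers summed to 6425 and 8793 CPM in this class. With called doublets removed, only 13 members were still measured and 0 of them were at least 2-fold higher, and the cause was not tested.

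Lymphocytes had few members past 2-fold. In T cells 3 of 36 were at least 2-fold higher, against 2.77% of 9924 genes, and 0 lower, against 1.64%, with a median of 0.17. These were Rsad2, Oasl2 and Parp12, each with 39 or fewer UMIs in either library. Isg15 had 160 and 221 UMIs, a log2 ratio of 0.64 (0.34 to 0.94), and Oas3 and Zbp1 had 0.63 and 0.52. Without the cluster led by Cxcr6 and Icos, Isg15 in T cells had −0.73. That cluster, whose leading genes mark activated T cells, had a median of 0.55 with 6 of 32 higher, against 2.95% of all genes. The Lef1-expressing cluster had a median of −0.13 with 2 of 29 higher, against 3.26%, and 2 lower, against 1.87%. In NK cells 1 of 17 was at least 2-fold higher, against 2.48% of 6944 genes, and 0 lower, against 3.27%, with a median of −0.05. That one was Isg15, 7 and 22 UMIs, with an interval of −0.07 to 2.68. Samd9l had −0.75 (−1.16 to −0.34) in NK cells.

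In B cells more members were at least 2-fold lower in NP than higher. Of 33 measured members 5 were lower, against 2.16% of 10009 genes, and 0 were at least 2-fold higher, against 2.1%. Usp18 counted 17 UMIs in 9 saline cells and 4 in 2 NP cells, with a log2 ratio of −2.24 (−4.27 to −0.63). Ifit3b had −2.0, Ifi44 −1.93, Ifit3 −1.39 and Rsad2 −1.05, each with 40 or fewer UMIs in either library. Better measured members had smaller ratios of either sign. Isg15 had 102 and 175 UMIs, a log2 ratio of 0.62 (0.26 to 0.99), Xaf1 0.75 and Rtp4 0.58, but with called doublets removed Isg15 had −0.43 and Rtp4 −0.10. In the pooled counts Trim30a had −0.40 (−0.69 to −0.12). The neutrophil markers in B cells summed to 30972 CPM in saline and 19996 in NP, and their part in these values was not tested.

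A small B cell cluster that carried neutrophil markers (51 cells in saline, 46 in NP) had a median of 0.73, and 8 of its 20 measured members were at least 2-fold higher, against 5.85% of all genes. The main B cell cluster of 476 and 604 cells had −0.24, with 3 of 28 lower, against 1.76%, and 0 higher, against 1.54%. In epithelial cells only 10 members were measured, from 53 and 50 cells, and 3 were higher where 15.9% of 6535 genes were, and 1 lower where 3.7% were. Isg15 there had 0 saline UMIs and 17 NP UMIs in 9 cells, too few to count as measured. Ifi27l2a had 34 and 14 UMIs, a log2 ratio of −1.65 (−2.66 to −0.71).

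**Figure D4:**
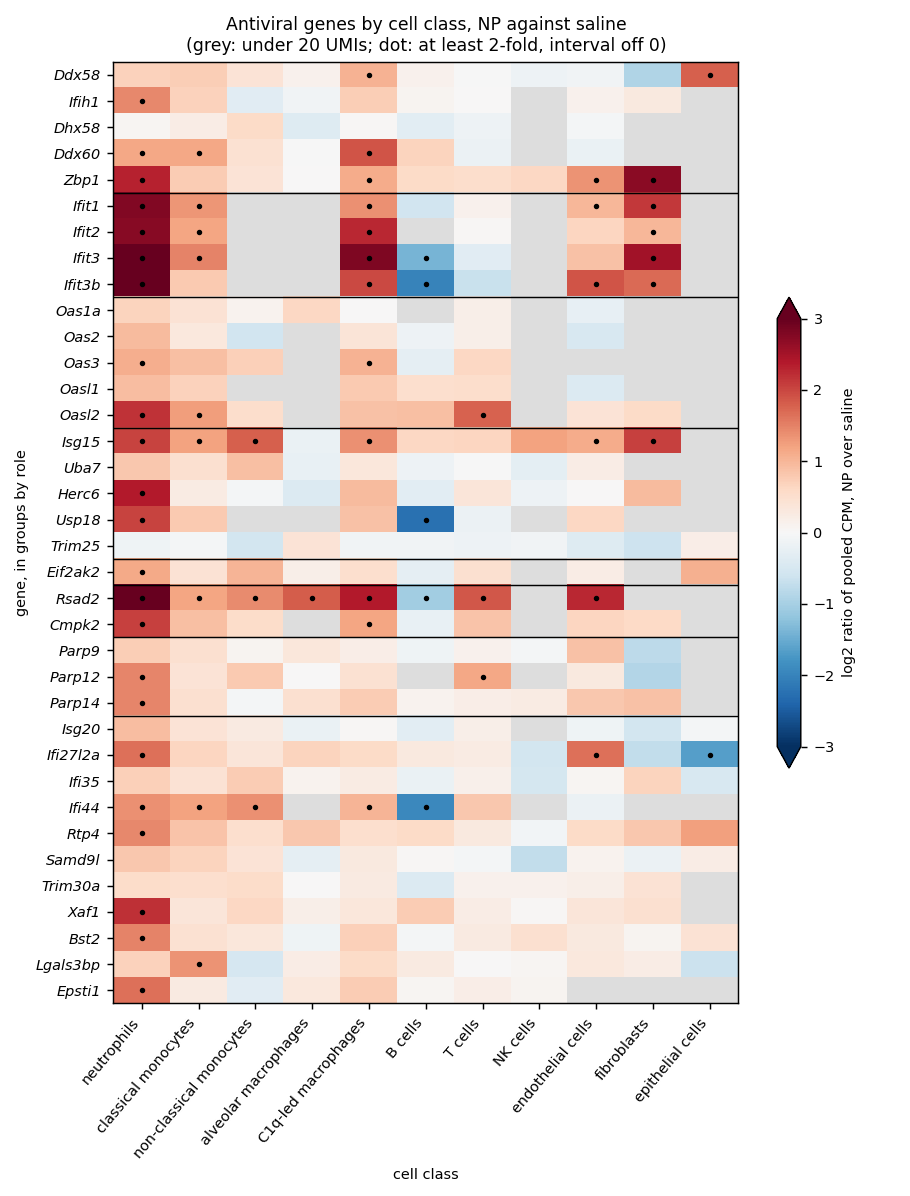
Log2 ratio of pooled CPM, NP over saline, for 36 members (rows, in groups by role) in 11 cell classes (columns), red for higher and blue for lower in NP. Grey cells had under 20 UMIs, and a dot marks a ratio of at least 2-fold with an interval off 0. The neutrophil column is red nearly throughout, the IFIT and Rsad2 rows reach across most classes in which they were measured, and Trim25 has no dot.

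Counted over the 11 classes, the members ranged from broad to narrow. A member was taken as higher in a class when it was at least 2-fold higher with an interval above 0. Rsad2 was higher in 7 of the 8 classes in which it was measured, all but B cells. In non-classical monocytes, alveolar macrophages, C1q-led macrophages, T cells and endothelial cells its saline UMIs alone were under 20. It reached the UMI minimum there only through its NP counts. NK cells, without Rsad2 UMIs, are not among the 8 classes. The minimum therefore partly sets this share for a gene that is low in saline. Isg15 was higher in 6 of 10 and Ifit1 in 5 of 7. Ifit2, Ifit3, Ifit3b, Zbp1 and Ifi44 were higher in 4 classes and Oasl2 and Ddx60 in 3. No member was higher in all classes. The tally depends on how cells were chosen, since 5 members in place of 10 were higher in 3 or more classes with called doublets removed, and 6 with a minimum of 800 genes per cell. It counts Isg15 and Ifi44 in the C1q-led class, where both turned negative in 7 settings, and Ifit1 in fibroblasts, where it had −0.32 with mitochondrial UMIs under 5% and −0.63 with every cell classed by its marker scores. It takes 12 members as higher in the C1q-led class. In the C1q-led cells of the finer resolution none of the 12 was at least 2-fold higher among the 26 measured members. The only one that was, Epsti1, is counted for neutrophils alone. Over all genes, 2.73% of measured pairs of a gene and a class met the rule of the tally.

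In all, 10 members were higher in 1 class. For 9 of them that class was neutrophils, namely Herc6, Xaf1, Usp18, Epsti1, Bst2, Parp14, Rtp4, Ifih1 and Eif2ak2. For Lgals3bp it was classical monocytes. The 2-fold cutoff sets this narrow group. An interval above 0 at any size was found in 5 classes each for Xaf1, Bst2, Parp14 and Rtp4, as many as for Ifit1 and Ifit3. It was found in 3 each for Usp18, Epsti1, Ifih1, Eif2ak2 and Lgals3bp, and in 2 for Herc6. The share of all genes with such an interval was not counted over the 11 classes. Neutrophils held the most UMIs of all classes in both libraries, though not for every gene, since Lgals3bp had more in classical monocytes. The part of depth in these calls was not tested. Bst2 was deep in endothelial cells, classical monocytes and C1q-led macrophages too, where its ratios were 0.30, 0.45 and 0.71 against 1.48 in neutrophils. Herc6 had 0.02 in endothelial cells, from 63 and 243 UMIs. Usp18 had 0.78 in classical monocytes and 0.63 in endothelial cells.

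The remaining 11 members were higher in no class. They were Oas1a, Oas2, Oasl1, Uba7, Trim25, Dhx58, Parp9, Isg20, Ifi35, Samd9l and Trim30a. In neutrophils 7 of these had log2 ratios between 0.71 and 0.96, under 2-fold but above 0. Dhx58 had no interval above 0 in any of the 8 classes in which it was measured. By role, 17 of 27 measured pairs of a gene and a class (63%) were higher in the IFIT family and 9 of 16 (56.2%) for Rsad2 and Cmpk2. Over all genes 2.73% of such pairs were. The shares were 10 of 46 for sensors, 8 of 46 for ISG15 conjugation, 5 of 34 for OAS genes, 3 of 28 for PARP genes and 11 of 111 for the other effectors. No IFIT gene reached the UMI minimum in non-classical monocytes, alveolar macrophages, NK cells or epithelial cells. These classes are left out of its pairs, while abundant genes keep them, so the shares do not rank the roles. Several pairs in both roles, those of Ifit3 and Rsad2 among them, reached the minimum only through NP counts. The minimum therefore also partly sets the 63% and 56.2%, and their distance from the share over all genes is not a test.

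**Figure D5:**
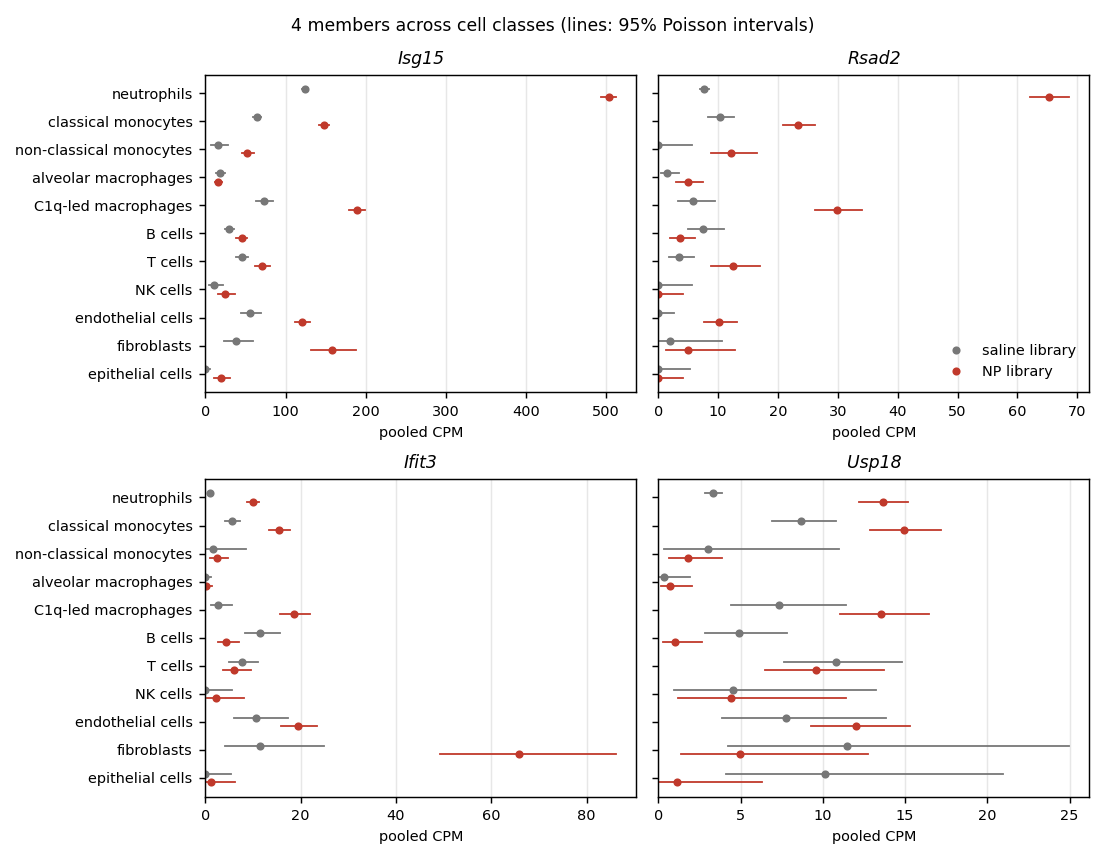
Pooled CPM of Isg15, Rsad2, Ifit3 and Usp18 in 11 cell classes, with saline in grey, NP in red and lines for 95% Poisson intervals. On this linear axis the Isg15 points lie furthest apart in neutrophils (124 and 503 CPM) and close together in alveolar macrophages (18.3 and 16.1 CPM), and the Usp18 intervals are apart in neutrophils and overlap in T, NK and endothelial cells.

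Over all cells of each library 21 of 36 members were at least 2-fold higher, against 14.8% of 15757 genes, and 0 lower, against 1.85%. The median was 1.11, beside 0.39 for all genes. With the median of all genes set to 0, 10 members were at least 2-fold higher. The classes had different shares in the libraries, and with the NP classes weighted as in saline the median was 0.89 and 14 members were at least 2-fold higher. The share of all genes past 2-fold was not recounted for either of these counts. The log2 ratios of 3 members differed most between the 2 ways of pooling. That of Bst2 went from 1.12 to 0.20, Lgals3bp from 1.48 to 0.48 and Ifi44 from 1.87 to 0.92. Isg15 went the other way, from 1.34 to 1.86, and Rsad2 from 2.18 to 2.67.

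The other genes of the pathway were unequal. Of 12 receptor and signaling genes, 5 were at least 2-fold higher in neutrophils, against 4.26% of all genes, with a median of 0.54. Among them were Socs1, a feedback inhibitor (2.66), Irf1 (1.58), Stat2 (1.38) and Irf7 (1.35). In classical monocytes 3 of 12 were, against 1.87%, among them Socs1 (1.78) and Irf1 (1.16). The receptor genes Ifnar1 and Ifnar2 had 0.20 and 0.03 in neutrophils and 0.18 and −0.02 in monocytes. Of the upstream sensing genes, the kinase gene Ikbke had 1.47 in neutrophils. The ligands were nearly absent, since 16 of 18 type I interferon genes had 0 UMIs in both libraries, Ifnab had 1 saline UMI and Ifnk had 2 in each.

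The GTPase and chemokine genes known for their response to IFN-γ had larger ratios than the antiviral members. In neutrophils 16 of 16 measured were at least 2-fold higher, against 4.26% of all genes, with a median of 3.02 beside 1.43 for the members. In classical monocytes the medians were 2.10 and 0.67, in endothelial cells 1.82 and 0.29, and in B cells 0.73 and −0.13. Cxcl10, a chemokine for activated T cells, went from 65 to 1777 UMIs in neutrophils, a log2 ratio of 5.78, and the GTPase gene Gbp5 had 4.92. Of their promoter windows 11 of 13 (84.6%) held an ISRE core and 6 of 13 (46.2%) the GAS motif, against 3.99% and 9.55% of all genes. The difference between these lists was not tested.

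RNA outside cells moved in the same direction. In barcodes with under 50 UMIs the members summed to 1261 CPM in saline and 2511 in NP, a log2 ratio of 0.99 (0.95 to 1.04). An assumed, fixed share of each class's UMIs was then taken away with the profile of this RNA. After that, 24 members were at least 2-fold higher in neutrophils, including all 23 from the uncorrected counts. The share of all genes past 2-fold was not recounted after this step. The true share was not estimated, so the result does not show that all free RNA was removed.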

How the data were processed

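Each library was deposited by the authors as a raw count matrix of UMIs per gene and barcode for 32285 genes, and the counts in it are whole and not normalized. The totals were 91168129 saline and 90081747 NP UMIs. Per the submitters' processing notes reads were processed with Cell Ranger 6.0 and mm10, while the matrix header names Cell Ranger 4. The labels give 4 pooled mice per condition, whereas the study's methods name 5.

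A barcode was taken as a cell at 500 to 5000 genes and mitochondrial UMIs below 7.5%. Its counts were set to a total of 10000 and put on a log scale, and 2000 variable genes, chosen after leaving out 133 interferon-induced genes, gave 30 principal components, a shared neighbor graph of 20 neighbors and Leiden clusters at resolution 1, without integration. Clusters were named from marker lists. A cluster stayed unnamed with under 3 markers detected, with shallow cells and no marker among its top 10 genes, with more top genes from another list or at least 2 from a second list at a score of 0.75 or more of the first, or with skeletal muscle genes leading. The muscle rule was added after the clusters were seen. Doublets were called with Scrublet and kept. The score cutoff differed between the libraries, 0.4217 in saline and 0.2781 in NP. UMIs were summed per class and library, and a count under 3 was set to 3 in ratios. A test over cells was not used, since cells are not replicates. The ratio and its interval were tested on simulated counts drawn independently, as the interval assumes. That test does not cover UMIs gathered in single cells.

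The members and gene lists were chosen with earlier results of these data known. Named by rule were the 3 highest and 3 lowest members with at least 100 UMIs per class, Isg15 everywhere, members past 2-fold in 1 class, other pathway genes past 2-fold in neutrophils or classical monocytes, and ligands. The values of 1 pathway gene named by this rule are not reported here. Other members are named because every member is accounted for. A list of 16 alternatives was fixed first and 6 were added after seeing the data. Promoters are from RefSeq on GRCm38.p6, and gene positions from the matching annotation, in which 99.6% of identifiers were found. Analyses ran in Python 3.11.15 with pandas 2.3.3, scipy 1.17.1 and numpy 2.4.6. Clustering used leidenalg 0.10.2, igraph 0.11.9 and scikit-learn 1.9.0, doublet calls used scanpy 1.11.5 on anndata 0.12.19, and plots used matplotlib 3.10.9.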

Additional observations from a re-analysis of the deposited data

Results flagged for a closer look

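Several members had opposite signs in different cell classes. Each of these differences was read from counting intervals on either side of 0 and was not tested between classes. In B cells, log2 ratios were −2.24 for Usp18, −2.0 for Ifit3b, −1.93 for Ifi44, −1.39 for Ifit3 and −1.05 for Rsad2. The same genes in neutrophils had 2.03, 3.07, 1.38, 3.29 and 3.08. The B cell values rest on 16 saline cells or fewer for each gene.

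Plasmacytoid dendritic cells, the specialised interferon-producing cells, numbered 18 in saline and 34 in NP, too few to be described gene by gene. Log2 ratios were −3.48 for Isg15, −2.51 for Usp18, −2.25 for Ifit2, −1.69 for Ifi44, −1.67 for Herc6 and −1.45 for Parp14. Isg15 had 92 saline UMIs in 7 cells, and 1 cell held 39 of them. Of the 37 saline Ifit2 UMIs, 1 cell held 35. Usp18 had 36 saline UMIs in 3 cells, 19 of them in 1 cell. Parp14 had 32 saline UMIs in 6 cells, 21 of them in 1 cell. Ifi44 had 74 in 7 cells, 27 of them in 1 cell, and Herc6 had 17 in 7 cells, 6 of them in 1 cell. In NP, Parp14 was found in 13 cells, Ifi44 in 16 and Herc6 in 8. Isg15 was set against fibroblasts, where it had 2.05, and the others against neutrophils. In epithelial cells Ifi27l2a had −1.65, from 34 UMIs in 9 saline cells and 14 UMIs in 10 NP cells, with 16 of the 34 in 1 cell.

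Signals outside the named classes were higher in NP in free RNA and in 4 of 5 unnamed clusters. In barcodes with under 50 UMIs the summed members had a log2 ratio of 0.99. Among clusters left unnamed, the Ager-led cluster 10 had 0.72, the G0s2- and Ly6g-led cluster 16 had 1.28, the Acta1- and Ckm-led cluster 19 had 0.47 and the Hhip- and Acta2-led cluster 22 had 0.93. The Msln- and Upk3b-led cluster 27 had −0.41.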

How the results depend on the processing

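Each condition had 1 library of pooled mice, so no alternative could leave out a replicate, and the counting intervals say nothing of the spread between mice. No paired analysis was possible because each condition had 1 library. Of 191 medians over the members recomputed under the alternatives, 180 stayed in a band around the main value. So did 56 of 62 medians of the other lists. The band ran from the median lower to the median upper limit of the genes' intervals, or had that width for all cells with saline class shares. It is as wide as a typical single gene's interval, so a median can change sign within it. The fibroblast median lay between −0.24 and 0.74 and the T cell median between −0.13 and 0.21. The neutrophil median lay between 1.05 and 1.59 and that of classical monocytes between 0.64 and 0.70. The 23 neutrophil members at least 2-fold higher all stayed so, except Ifi44 at a minimum of 100 UMIs and Ifi44, Oas3 and Eif2ak2 with NP clusters weighted as in saline. Over single members 4797 of 5180 values did not move beyond the counting error or, for members past 2-fold with an interval off 0, change sign. In all 256 values had another sign, 19 of them for such members and 237 for the others. Values that moved follow by setting, for members at least 2-fold higher unless said, and except where a setting itself changes the cells or genes counted the cause was not tested. For most settings the share of all genes past 2-fold was not recounted, and the number of measured members can differ from the main one.

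With called doublets removed, the C1q-led class held 207 cells, its median was −0.02 and 2 of 26 measured members were higher. Counts were then 1 of 26 measured in B cells, 1 of 33 in T cells, 2 of 17 in NK cells, 0 of 23 in alveolar macrophages and 0 of 13 in fibroblasts. Lower members numbered 3 in B cells, 2 in fibroblasts and 1 each in T cells, alveolar macrophages and endothelial cells. In that setting 5 members were higher in 3 or more classes in place of 10. With no gene left out of clustering the C1q-led class held 218 cells with a median of −0.03 and 2 higher, and fibroblasts had 3 higher and 1 lower. With a minimum of 200 genes it held 149 cells with a median of 0.08, 2 higher and 1 lower. Non-classical monocytes then had 8 higher and fibroblasts 11. With a minimum of 800 genes it held 139 cells, 0.15 and 1 higher. Fibroblasts then had 1 higher and 2 lower, and 6 members were higher in 3 or more classes. With mitochondrial UMIs under 10% it held 140 cells, 0.04, 1 higher and 3 lower. At resolution 2 it held 138 cells, 0.06, 1 higher and 1 lower, and fibroblasts had 1 lower. The same 0.06, 1 and 1 came from those cells alone, a choice added after seeing the data. Under these 7 settings Isg15 in the C1q-led class changed sign, to −0.70, −0.82, −0.69, −0.34, −1.10, −0.58 and −0.58, and Ifi44 to −0.39, −0.41, −0.46, −0.47, −0.61, −0.66 and −0.66. Oas3 changed to −0.32 without doublets and −0.22 with no gene left out.

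With each cell's class taken from its own marker score, the C1q-led class held 131 cells with a median of 0.17 and 2 higher. Non-classical monocytes then had 10 higher, epithelial cells 5 higher and 0 lower, alveolar macrophages 2, NK cells 0 higher and 1 lower, B cells 2 higher and 2 lower, and fibroblasts 1 higher and 2 lower. Fibroblast Zbp1 was then −0.14 and Ifit1 −0.63. With mitochondrial UMIs under 5%, endothelial cells had 11 higher, epithelial cells 1, fibroblasts 2 higher and 4 lower, B cells 3 lower, fibroblast Ifit1 was −0.32, and the median over all cells was 1.22. At 1.5-fold in place of 2-fold, the higher counts were 20 in classical monocytes, 20 in the C1q-led class, 12 in endothelial cells, 11 in fibroblasts, 9 in non-classical monocytes, 7 in T cells, 4 in B cells, 4 in alveolar macrophages and 2 in NK cells. Lower counts were then 5 in fibroblasts, 2 in epithelial cells and 1 each in T and NK cells. The share of all genes past 1.5-fold was not counted, so these counts have no background beside them.

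At a minimum of 100 UMIs, non-classical monocytes had 2 higher, fibroblasts 1, T cells, NK cells and alveolar macrophages 0, and B cells 0 lower. With no minimum, epithelial cells had 9 higher and 2 lower, NK cells 2 and 2, alveolar macrophages 2 and 1, B cells 1 higher, non-classical monocytes 2 lower, and endothelial cells and fibroblasts 1 lower each. With equal weight per cell, fibroblasts had 10 higher and 2 lower, B cells 1, epithelial cells 1 and NK cells 0, and 7 members were higher in no class in place of 11. With the assumed share of free RNA taken away, lower counts were 2 in fibroblasts and 1 each in NK cells and alveolar macrophages. Without the cell with the most UMIs, alveolar macrophages had 2 higher and B cells 1. In 2 choices added after seeing the data, B cells without the cluster with neutrophil markers had 3 lower, and T cells without the Cxcr6-led cluster had 2 lower.

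With the median of all genes set to 0, the median over all cells was 0.74 with 10 higher, and that of the receptor and signaling list in neutrophils was 0.67. With NP clusters weighted as in saline, added after seeing the data, the neutrophil median was 1.05, that of the signaling list 0.46 and that of the IFN-γ list 2.61. The IFN-γ list in classical monocytes had 2.37 without doublets, 2.35 with no gene left out and 1.69 at 100 UMIs. Without thinning, cells with 5 or more members were 41.4% of saline and 73.1% of NP neutrophils, 93.8% and 98% of classical monocytes, 33.4% and 32.6% of B cells, and 50.3% and 58.4% of endothelial cells. Counting promoter windows one by one, also added, gave 3.44% of all windows for the ISRE core and 8.3% for GAS.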

Other observations

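The unnamed clusters held single-gene values of the same kind. In the G0s2-led cluster of 107 saline and 151 NP cells, which also expressed the neutrophil gene Ly6g, 20 of 32 measured members were at least 2-fold higher, against 4% of all genes, and Rsad2 had a log2 ratio of 3.78. In the Ager-led cluster of 131 and 429 cells, 13 of 30 were at least 2-fold higher, against 5.43%, and Ifi44 had 2.22. In the cluster led by Msln and Upk3b, with 36 and 13 cells, the summed level of the members was 4594 CPM in saline and 3468 in NP, a log2 ratio of −0.41 (−0.58 to −0.24). Over the plasmacytoid dendritic cells the members summed to 9316 CPM in saline and 6202 in NP. This was the highest saline level of the classes.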
